A study of Mus musculus with 9 samples.

Results

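The MYC arm of a sorted mammary cell line was compared with its control arm, population by population, across all genes. The members are the 3 MYC libraries and the 3 control libraries, 6 of the 9 libraries in the series, chosen by their labels alone. Each MYC library was paired with the control library of the same sort. Comma-1D is a mouse mammary epithelial line, grown in DMEM:F12 with FCS, EGF, insulin and gentamicin. The B population was Sca-1 high and EpCAM low, the L population was Sca-1 low and EpCAM high, and the bi population was high for both. The MYC arm was transduced with an activated MYC oncogene, the third arm with activated Her2, and the labels call the remaining arm control without saying whether it received a vector. The labels also do not give the vector, the species of the transgene, or whether the libraries of an arm came from separate transductions, so the p-values measure only the spread between these libraries. Every population and arm is 1 library.

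MYC is a transcription factor that binds DNA with its partner MAX, mostly at the E-box CACGTG. The MXD proteins, MXI1 and MNT compete for MAX and are known for antagonising MYC. MYC is best known for raising genes of ribosome production, nucleotide synthesis and mitochondrial function, and in mammary epithelium it is known as an oncogene that also affects the state of differentiation.

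Library totals ran from 46.9 to 98.9 M estimated reads, and the bi control, at 98.9 M, was deeper than the bi MYC library at 53.4 M. Levels are given in CPM, reads scaled to a common library size. Sca-1, encoded by Ly6a, was at 57.8, 6.53 and 18.4 CPM in the B, L and bi controls and at 112, 12.8 and 139 in the matching MYC libraries (log2 fold change 1.58, SE 0.36, adjusted p = 0.088). Epcam was at 0.764, 408 and 336 CPM in the controls and at 0.183, 331 and 252 with MYC. The basal keratin genes Krt5 and Krt14 were abundant in each of the 6 libraries, while Cdh1 and Krt18 were low in both B libraries. Krt8, a defining luminal keratin, was at 0.0888 CPM in the B control, 0.533 in the bi control and 5.89 in the L control. Summed over the blood marker list, levels were 3.02 to 4.78 CPM in the controls and 4.41 to 6.86 with MYC, and 7 of its 12 genes did not pass the filter on low counts. The fibroblast list summed to 393 CPM in the B control and 377 in B MYC, 61.0 and 31.6 in L, and 136 and 86.6 in bi, and its part in the results on matrix genes was not tested. In bulk libraries fewer cells of a type and less RNA per cell cannot be told apart.

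Myc and one of its antagonists rose together. Myc was at 114, 83.3 and 92.6 CPM in the B, L and bi controls and at 285, 207 and 188 with MYC (log2 fold change 1.21, SE 0.20, adjusted p = 0.0339, edgeR quasi-likelihood test). These reads may mix endogenous and transgene transcript. Mxd4, which encodes a MAX-binding repressor, was at 58.6, 23.6 and 19 CPM in the controls and at 137, 66.2 and 87.3 in the MYC libraries (1.66, SE 0.26, adjusted p = 0.026). Every MYC library lay above all 3 controls for both genes. Of the 13 genes of the MYC network list, 2 were called, both higher, and the list's median was 0.27 against 0.03 over all tested genes, or 0.14 without B MYC and 0.42 without L MYC. Mxi1 (1.08, adjusted p = 0.0674), Mnt (0.60, adjusted p = 0.165) and the paralog Mycn (-1.77, adjusted p = 0.155) did not pass.

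The E-box was looked for in promoter windows of RefSeq, which run from 250 bases before to 50 after the start of a gene, and CACGTG reads the same on both strands. Of 23811 tested symbols 13781 had a window, and 10.3% of these held the motif. It was present in 5 of 33 called rises (15.2%, exact 95% interval 5.11 to 31.9%), 8 of 108 called falls (7.41%, 3.25 to 14.1%) and 11 of 42 nucleolar ribosome biogenesis genes (26.2%, 13.9 to 42.0%). The following stretches, on GRCm38.p6 and 5′ to 3′ on the strand of the gene, show the motif in capitals within promoters of genes on both sides of the comparison. Mxd4 and Pdk2, a kinase that inhibits pyruvate dehydrogenase, rose. Tyms, for thymidylate synthase, and Ppa1, for a pyrophosphatase, fell. Nop2, a nucleolar RNA methyltransferase gene of the list just named, was not called (-0.59, adjusted p = 0.185). Ppa1 and Nop2 were chosen after their values were seen. The windows are chr5:34187884-34187960 (minus strand, Mxd4), chr11:95041452-95041537 (minus, Pdk2), chr5:30073641-30073726 (minus, Tyms), chr10:61648441-61648526 (plus, Ppa1) and chr6:125131783-125131868 (plus, Nop2).
Mxd4: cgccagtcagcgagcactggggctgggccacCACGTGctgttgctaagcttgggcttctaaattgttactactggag
Pdk2: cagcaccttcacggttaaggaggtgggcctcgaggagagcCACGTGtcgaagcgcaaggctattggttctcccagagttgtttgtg
Tyms: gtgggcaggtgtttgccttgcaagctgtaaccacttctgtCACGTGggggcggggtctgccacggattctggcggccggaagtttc
Ppa1: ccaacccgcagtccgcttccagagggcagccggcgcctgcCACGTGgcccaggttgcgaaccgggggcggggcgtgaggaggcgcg
Nop2: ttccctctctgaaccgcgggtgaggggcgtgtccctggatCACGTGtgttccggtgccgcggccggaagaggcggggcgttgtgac
The motif starts 219 bases before the start site in Mxd4, 126 in Pdk2, 61 in Tyms, 140 in Ppa1 and 60 in Nop2. A match describes the letters of the window and was not tested as a binding site.

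Over the 3 populations 182 of 23834 tested genes were called (0.764%), 47 higher (0.197%) and 135 lower (0.566%) with MYC. Of these, 180 had the same sign in B, L and bi. In 29 of the rises all 3 MYC libraries were above all 3 controls, as in 7.36% of all tested genes, and in 99 of the falls they were below, as in 7.02%. These genes were called on the same libraries, so nothing is read from these shares. The falls were deepest in bi, where their median log2 ratio was -1.51 against -1.15 in L and -0.94 in B, and the rises had medians of 2.06, 1.49 and 1.43. The calls rest on these same libraries, so nothing is read from this order either. Among all tested genes with at least 5 CPM in the higher library, 1144 differed at least 2-fold in bi, 703 in L and 730 in B. Without that minimum, 4.43% of the 23834 tested genes were at least 2-fold higher in B and 11.67% at least 2-fold lower. These shares were 7.65% and 3.84% in L and 8.86% and 6.29% in bi. The order of the populations thus changed with the minimum. Of the 135 falls, 39 were in the cell cycle and DNA repair lists, 5 in the ERK output list and 91 in neither. These lists are short, and the 91 include genes of cell division such as Mybl2, Ncapg and Smc2. Without using a model, 52 genes were at least 2-fold higher in every population (0.218%) and 58 at least 2-fold lower (0.243%). Across 10763 genes with a mean of at least 5 CPM, the log2 ratios correlated at r = 0.75 between L and bi, 0.43 between B and bi and 0.32 between B and L. Each population has its own pair of libraries, and genes are not independent replicates.

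The number of calls rested on single libraries. It was 6 without the bi control and 8 without bi MYC, 35 without L MYC, 101 without the L control, 347 without B MYC and 642 without the Her2 library of B. Without B MYC the rises were 151 and without the B control the falls were 225. Tubb3 and U90926 alone among the genes with names other than predicted ones kept their call in every fit that left out a library or a population. Scaled to deposited TPM, 845 genes were called, 49 higher and 796 lower, with the median of all genes shifted by -0.18.

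Coq8a, Bmf and Tcp11l2 were among the largest rises under the naming rule. Coq8a, an atypical kinase needed for coenzyme Q synthesis, was at 1.44, 0.819 and 0.651 CPM in the B, L and bi controls and at 6.86, 5.82 and 4.2 with MYC (2.61, SE 0.31, adjusted p = 0.0134). Bmf, a pro-apoptotic BH3-only gene, went from 1.63, 7.15 and 3.0 CPM to 6.03, 35.2 and 18.1 (2.29, SE 0.30, adjusted p = 0.0145). Tcp11l2 was at 16.6, 6.20 and 4.18 CPM in the controls and at 60.7, 18 and 21.1 with MYC (1.93, SE 0.25, adjusted p = 0.0144). Each of the 3 genes rose at least 2-fold in every population, and for Coq8a every MYC library was above every control.

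Coq8a was the one call among 13 coenzyme Q synthesis genes, whose median was 0.12, with 5 members higher and 3 lower in all 3 populations. Bmf and Tcp11l2 belong to the list of genes linked to FOXO factors and quiescence. Of the 37 tested members of that list 25 were higher in all 3 populations and 4 lower in all 3, against 19.9% and 18.1% of all tested genes. The list's median was 0.45, with population medians of 0.48 (B), 0.44 (L) and 0.60 (bi), and 2 members were called. Pik3ip1, an inhibitor of PI3 kinase, had 1.19 (adjusted p = 0.0583), the repressor gene Hbp1 0.80 (adjusted p = 0.062) and Crebrf 1.35 (adjusted p = 0.0708).

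Other genes rose as well. Pdk2 was at 6.16, 2.82 and 1.94 CPM in the controls and 19.6, 8.29 and 7.29 with MYC (1.71, SE 0.33, adjusted p = 0.0479). The aldolase gene Aldoc went from 29.0, 16.2 and 11.1 CPM to 57.8, 65.8 and 49.0 (1.71, SE 0.23, adjusted p = 0.0164), the one call among 25 glycolysis genes. The median of that list was 0.12, but 0.003 without B MYC, 0.05 without bi MYC, 0.22 without the bi control, 0.37 without L MYC and -0.04 on TPM. Aldh6a1, of valine breakdown, rose by 1.56, and Miga1, which acts in mitochondrial fusion, by 1.57. Cited4 (1.73), Mturn (1.60) and Cables1 (1.56) were also among the rises under the naming rule. Of genes outside the naming rule, chosen after their values were seen, Phyh, the peroxisomal phytanoyl-CoA hydroxylase gene, rose by 1.44 and the peroxisomal membrane gene Pxmp4 by 1.43. The glutathione transferase gene Gstm1 was at 32.9, 12.1 and 8.56 CPM in the controls and 85.3, 24 and 30.2 with MYC (1.38, SE 0.20, adjusted p = 0.0178). It was the one call among 32 NRF2 targets and glutathione transferases, whose median was 0.30 and lay between 0.17 (without the B control) and 0.45 (without L MYC), and reads of the Gstm family may be shared between near-identical members.

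Fatty acid oxidation genes had a median of 0.41 with no call among 27. Of these, 11 were higher in all 3 populations, against 19.9% of all tested genes. The list's median was 0.21 without the B control, 0.25 without bi MYC and 0.17 on TPM. The population medians were 0.70 (B), -0.01 (L) and 0.42 (bi). Lysosome and autophagy genes had a similar order, with 0.45 in B, -0.03 in L and 0.37 in bi. None of 44 was called, and 19 were higher in all 3, against 19.9% of all tested genes. The autophagosome gene Map1lc3b had the smallest p of the list (0.81, adjusted p = 0.0797). Calcoco1, a cargo receptor gene for autophagy outside that list, was at 34.8, 16.6 and 12.6 CPM in the controls and 93.9, 47.6 and 49.3 with MYC (1.67, SE 0.30, adjusted p = 0.0401).

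**Figure D1:**
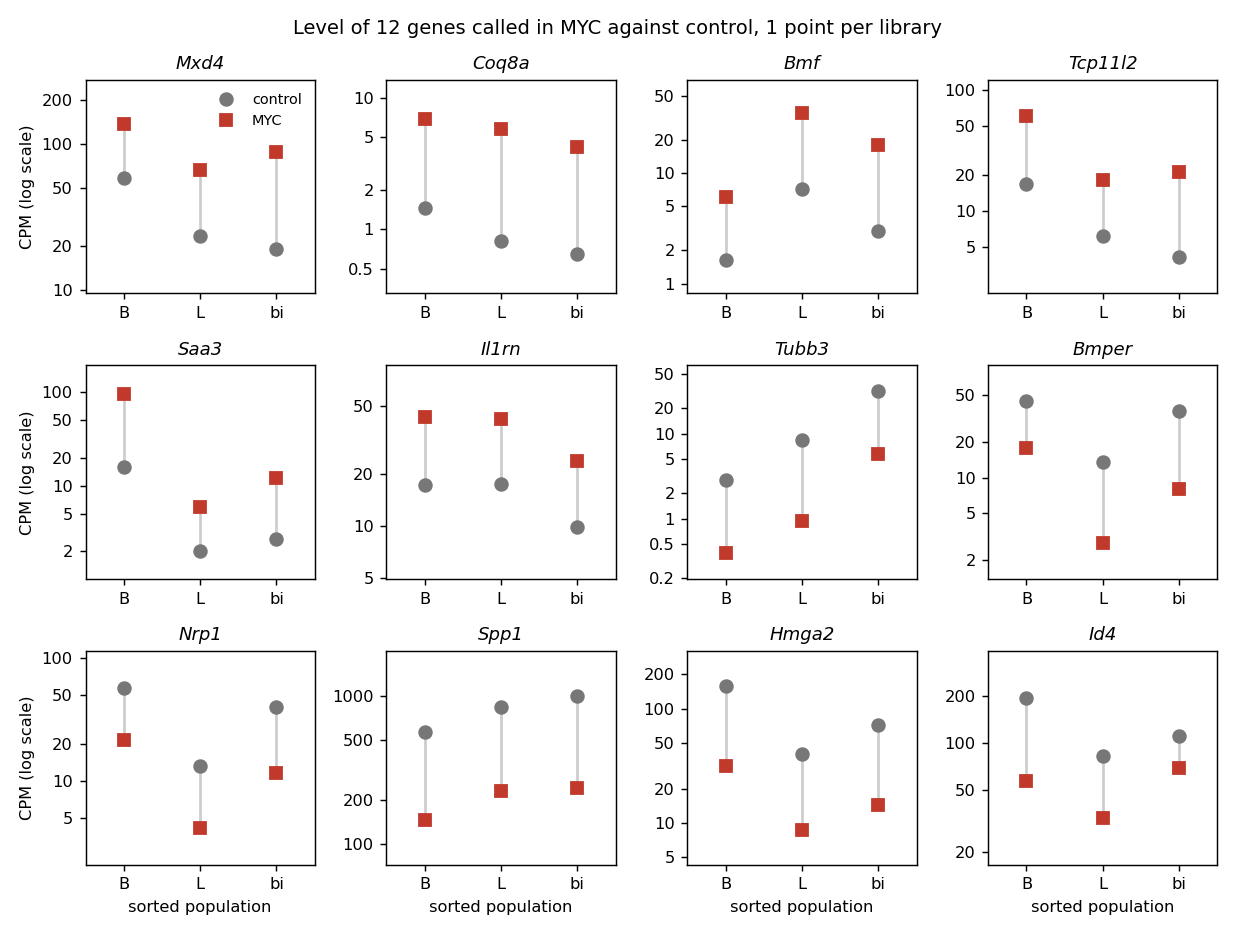
Level in CPM (logarithmic axis) of 12 genes called in MYC against control, by sorted population, with 1 point per library (grey circles control, red squares MYC) and no error bar because each is a single library. For the 6 genes from Mxd4 to Il1rn the MYC point lies above its control in each population, and for the 6 from Tubb3 to Id4 below it. Coq8a in B, for example, is at 6.86 against 1.44 CPM.

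Of the acute-phase and complement lists 4 members were called, all higher with MYC. Saa3, an acute-phase apolipoprotein gene, was at 16, 2.02 and 2.69 CPM in the B, L and bi controls and at 96.3, 5.96 and 12.2 with MYC (2.16, SE 0.27, adjusted p = 0.014). Orm1, for orosomucoid, went from 6.61, 4.75 and 1.92 CPM to 22.7, 10.5 and 11.6 (1.86, SE 0.34, adjusted p = 0.0389), with all MYC values above all controls. Orm2 rose by 3.21 (adjusted p = 0.0351) from levels of at most 0.124 CPM. Orm3, outside the list and the naming rule and chosen after its values were seen, rose by 2.03 (adjusted p = 0.0347), and the Orm genes are close paralogs between which reads may be split. Of 22 tested acute-phase and innate defence genes Saa3, Orm1 and Orm2 were called higher and none lower. In B 12 members were higher, 6 of them at least 2-fold, and 10 lower, 7 of them at least 2-fold. Over all tested genes 4.43% were at least 2-fold higher in B and 11.67% lower. In L 15 members were higher and 7 lower, and in bi 16 and 6, while 52.7% and 54.1% of all tested genes were higher. At least 2-fold, 11 members were higher and 3 lower in L, and 12 and 1 in bi. Over all tested genes those shares were 7.65% and 3.84% in L, and 8.86% and 6.29% in bi. The list's median was 1.02, and its population medians were 0.15 (B), 1.02 (L) and 1.43 (bi). It was 0.43 without bi MYC, 0.47 without the bi control and 0.46 without the L control. On the deposited TPM, as log2(TPM + 1) after a filter of its own, it was 0.15. Haptoglobin, encoded by Hp, was at 13.6 CPM in the L control and 240 in L MYC, against 5.38 and 12.6 in B and 2.52 and 16 in bi (2.69, adjusted p = 0.134).

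C1s1, for the complement protease C1s, was at 319, 3.20 and 12.2 CPM in the controls and at 557, 8.95 and 60.8 with MYC (1.55, SE 0.28, adjusted p = 0.0423). Its partner gene C1ra had 0.96 (adjusted p = 0.0674) and C1rl 1.53 (adjusted p = 0.0554). Of 14 tested complement genes 9 were higher and none lower in all 3 populations, against 19.9% and 18.1% of all tested genes. The list's median was 0.91, or 0.47 on TPM. In the interleukin 1 and 6 families 1 gene was called higher and 1 lower. Il1rn, the interleukin 1 receptor antagonist, was at 17.2, 17.6 and 9.80 CPM in the controls and 43.1, 42.2 and 23.8 with MYC (1.29, SE 0.21, adjusted p = 0.0307). Il1rl1, for the interleukin 33 receptor ST2, was at 40.5, 2.74 and 14.3 CPM and fell to 4.23, 0.622 and 3.31 (-2.55, SE 0.35, adjusted p = 0.0178). Every MYC library was above every control for Il1rn, while the Il1rl1 ranges overlapped between populations.

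Interferon-response transcripts were higher mainly in the L library. In L 32 of 38 tested members were at least 2-fold higher with MYC, against 7.65% of all tested genes, and the median ratio was 2.04. In bi 14 members passed that size, against 8.86% of all genes, with a median of 0.80, and in B 2 members did, against 4.43%, with a median of 0.23. Summed over the list, levels were 242 CPM in the B control and 335 in B MYC, 257 and 658 in L, and 217 and 300 in bi. Over the 3 populations the median was 1.10, and without L MYC it was 0.47. Igtp, an interferon-induced GTPase gene, was the one call. It was at 0.994, 1.30 and 0.576 CPM in the controls and 3.43, 5.75 and 2.68 with MYC (2.07, SE 0.36, adjusted p = 0.0347). Mx2 (2.81, adjusted p = 0.0687), Bst2 (1.48, adjusted p = 0.0735) and Zbp1 (1.36, adjusted p = 0.0877) did not pass.

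MHC class I presentation genes moved less. Tap2, a peptide transporter subunit, was at 12.6, 3.33 and 3.20 CPM in the controls and 27.3, 6.98 and 11.6 with MYC (1.37, SE 0.27, adjusted p = 0.0494). It was the one call among 19 genes. Tap1 had 1.22 (adjusted p = 0.072) and H2-D1 0.94 (adjusted p = 0.0674). The list's median was 0.22, or 0.01 on TPM, while its summed level was lower with MYC in each population, at 1297 and 1126 CPM in the B control and MYC libraries, 1108 and 882 in L, and 1320 and 912 in bi.

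**Figure D2:**
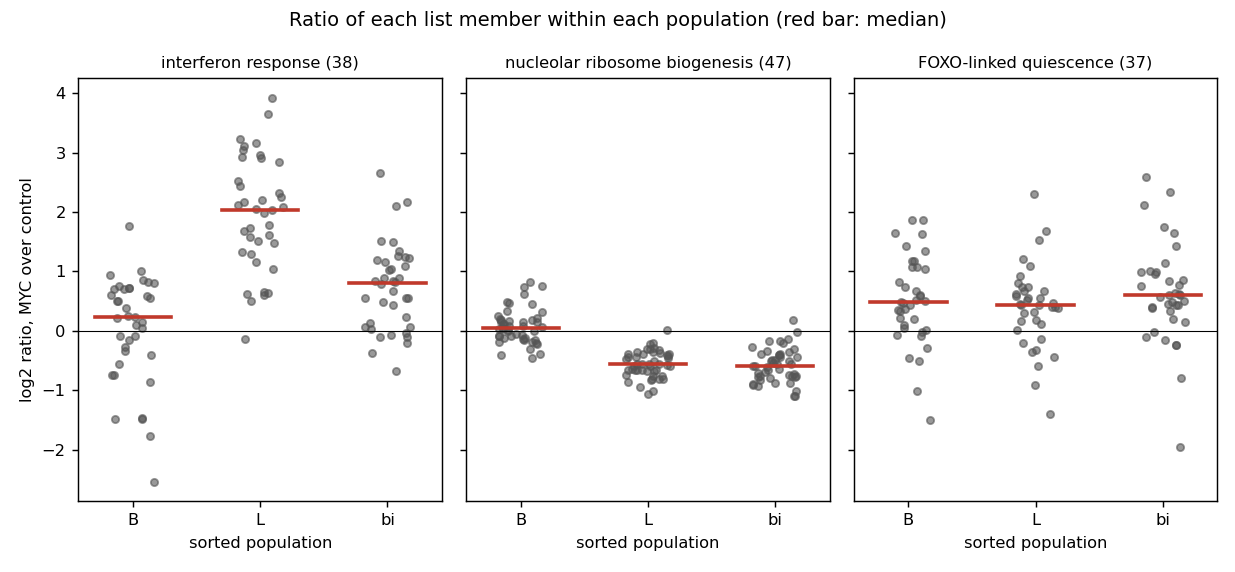
Log2 ratio of the MYC over the control library for each tested member of 3 gene lists (1 grey point per gene, horizontal scatter random, red bar the median) in B, L and bi. Interferon-response members lie highest in L (median 2.04), nucleolar members lie below 0 in L and bi but around 0 in B (-0.56, -0.59 and 0.05), and FOXO-linked members have medians of 0.44 to 0.60 in all 3.

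Genes of the growth machinery for which MYC is known lay lower in the MYC libraries of L and bi. Of 47 nucleolar ribosome biogenesis genes 46 were lower in L and 46 in bi, with median ratios of -0.56 and -0.59, whereas in B 28 were higher and 19 lower, with a median of 0.05. Over all tested genes 47.3% were lower in L and 45.9% in bi. No member was called, 21 had an unadjusted p under 0.05 in the lower direction (7.27% of all genes) and none in the higher (6.59%), and the median over the 3 populations was -0.40, or -0.23 without the bi control. Pno1, of small-subunit assembly, was at 42.2, 52.9 and 71.5 CPM in the controls and 31.7, 25.4 and 33.3 with MYC (-0.87, SE 0.19, adjusted p = 0.0631). Rrp12, of ribosomal RNA processing, went from 41.8, 53.9 and 71.2 CPM to 30.3, 26.6 and 33.3 (-0.87, adjusted p = 0.0674), and Heatr1 had -0.61 (adjusted p = 0.143). All 3 MYC libraries were below all 3 controls for Pno1 and Rrp12.

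Nucleotide and one-carbon synthesis genes had a median of -0.45, or -0.29 without the bi control. Of 30 members 16 were lower and none higher in all 3 populations, against 18.1% and 19.9% of all tested genes. Tk1, for thymidine kinase, was the one call, at 50.2, 114 and 142 CPM in the controls and 26.6, 52.5 and 56.3 with MYC (-1.12, SE 0.17, adjusted p = 0.026). Cad, for the first steps of pyrimidine synthesis, was at 175, 196 and 258 CPM and then 130, 95.5 and 114 (-0.89, adjusted p = 0.0605). Nme1 had -1.04 (adjusted p = 0.0631) and the purine synthesis gene Pfas -0.82 (adjusted p = 0.0708).

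Mitochondrial import and translation genes had ratios with medians of 0.20 (B), -0.56 (L) and -0.46 (bi), and oxidative phosphorylation subunits 0.45, -0.39 and -0.20. Neither list of 26 and 45 genes had a call. The import pore gene Tomm40 had -0.76 (adjusted p = 0.0882) and Cycs, for cytochrome c, -0.79 (adjusted p = 0.0583). Cycs was at 44.3, 52.4 and 53.1 CPM in the controls and at 27.8, 29.0 and 29.5 with MYC. Translation factors and tRNA synthetases had a median of -0.21 with no call among 32, and it was -0.04 without the bi control, -0.14 without L MYC and -0.42 without the B control. Tfrc, for the transferrin receptor, and Lyar, a nucleolar regulator, lie outside the naming rule and were chosen after their values were seen. They fell by 1.09 (adjusted p = 0.0284) and 1.11 (adjusted p = 0.0347).

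Matrix, adhesion and guidance genes were among the falls. Spp1, for osteopontin, was at 572, 841 and 991 CPM in the B, L and bi controls and at 146, 229 and 238 with MYC (-1.98, SE 0.27, adjusted p = 0.0164). Nrp1, a receptor for semaphorins and VEGF, went from 56.7, 13.3 and 40.0 CPM to 21.6, 4.14 and 11.6 (-1.61, SE 0.20, adjusted p = 0.014). Bmper, a secreted regulator of BMP signalling, went from 44.4, 13.4 and 36.5 to 17.6, 2.77 and 7.92 (-1.89, SE 0.27, adjusted p = 0.0178). All Spp1 values with MYC were below all controls, while Nrp1 and Bmper were lower in each population with ranges that overlapped across populations.

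Fbn1, for the microfibril protein fibrillin, fell by 1.89 (adjusted p = 0.0446) and with Spp1 gave 2 calls among 34 collagen and matrix genes, none of them higher. The list's median was -0.49, or -0.19 without the B control and -0.76 without the L control. In all 3 populations 16 members were lower and none higher, against 18.1% and 19.9% of all tested genes. In B 30 of 34 members were lower, with a median of -0.95, against 52.0% of all tested genes. The proteoglycan gene Vcan had -1.21 (adjusted p = 0.0538). Of the mesenchymal transition list, Cdh11, a mesenchymal cadherin gene, was called among 23 genes. It was at 4.79, 0.078 and 0.533 CPM in the controls and 0.206, 0.0254 and 0.0197 with MYC (-3.99, SE 0.57, adjusted p = 0.0178), and in the L libraries and bi MYC it had few reads. Cdh2, for N-cadherin, was at 43.7, 25.6 and 53.3 CPM and then 10.7, 7.68 and 10.1, and did not pass (-2.11, adjusted p = 0.104). The list's median was -0.46, and it ran from -0.77 without B MYC to -0.37 without the bi control. In all 3 populations 12 members were lower and none higher, against 18.1% and 19.9% of all tested genes.

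Of 35 semaphorin and axon guidance genes Nrp1 alone was called. Ntn1, for netrin 1, was at 37.8, 7.16 and 43.9 CPM in the controls and 4.30, 4.11 and 5.80 with MYC (-2.39, adjusted p = 0.0576). Its median was -0.06, against 0.03 over all genes, and ran from -0.32 without bi MYC to -0.02 without L MYC. The tubulin list gave 2 calls, both lower. Tubb3, known as a neuronal tubulin, was at 2.82, 8.42 and 31.7 CPM in the controls and 0.389, 0.939 and 5.70 with MYC (-2.80, SE 0.24, adjusted p = 0.000862). Tuba1b, the other call among 25 tubulin and microtubule genes, was at 522, 814 and 1017 CPM and then 282, 332 and 339 (-1.24, SE 0.23, adjusted p = 0.0423). Tuba1b shares reads with near-identical tubulin genes. The median of these genes was -0.64. Of the 25, 16 were lower and 2 higher in all 3 populations, against 18.1% and 19.9% of all tested genes.

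Hmga2, an architectural chromatin gene of embryonic and mesenchymal cells, was at 160, 40.1 and 72.0 CPM in the controls and 31.3, 8.60 and 14.5 with MYC (-2.31, SE 0.38, adjusted p = 0.0423), with all MYC values below all controls. Id4, an inhibitor of basic helix-loop-helix factors known in basal mammary cells, went from 193, 82.6 and 110 CPM to 56.5, 33.0 and 68.6 (-1.29, SE 0.25, adjusted p = 0.046). It was the one call among 27 basal and myoepithelial genes. The list's median was -0.39, and it was -0.63 without B MYC, -0.64 without the bi control and -0.28 without L MYC. Its population medians were -0.34 (B), -0.44 (L) and -0.09 (bi). Other falls were in Hhip, a hedgehog-binding inhibitor (-2.37), the transcription factor genes Myb (-1.59) and Bhlhe22 (-1.55), the drug efflux pump gene Abcb1b (-1.54) and Dpf1, for a neuronal chromatin remodelling subunit (-1.50). Hhip was at 0.0355 CPM in the B control and 0 in B MYC, so its fall rests on L and bi. U90926 had the largest fall under the naming rule, from 2.43, 11.8 and 36.8 CPM to 0.183, 0.419 and 1.79 (-4.42, SE 0.33, adjusted p = 0.000307).

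Among ligands of the EGF receptor, Areg and Ereg fell together with Epgn, for epigen. Areg was at 16.1, 11.6 and 13.7 CPM in the controls and 0.937, 2.66 and 2.11 with MYC (-2.97, SE 0.35, adjusted p = 0.014), and Ereg at 162, 46.5 and 60.8 and then 28.5, 10.2 and 10.2 (-2.44, SE 0.38, adjusted p = 0.0389). For both, all MYC values were below all controls. Epgn was at 30.7, 5.54 and 18 CPM in the controls and 11.6, 1.40 and 4.18 with MYC (-1.78, SE 0.34, adjusted p = 0.0497). Nrg1, a ligand of the ERBB3 and ERBB4 receptors, had -1.33 (adjusted p = 0.0708). Areg, Ereg, Epgn and the ERK-induced factors Etv4 (-1.37) and Etv5 (-1.30) were the calls among 21 ERK output genes. Prkg2, a cGMP-dependent kinase gene outside the list, fell by 1.52 (adjusted p = 0.046). Of the DNA repair and Fanconi list 7 of 27 were called lower, led by Dna2 (-1.75) and Fancb (-1.60, from 11.1, 11 and 17.0 CPM to 3.70, 4.2 and 4.85). In the G1/S list 21 of 37 were called lower and in the G2/M list 11 of 40, against 0.566% of all tested genes. No member of these 3 lists was called higher. The repressors E2f7 (-1.52) and E2f8 (-1.64), the cyclin gene Ccne2 (-1.50), Uhrf1 (-1.46), Cdc6 (-1.75) and Mybl2 (-1.45) were lower in each population.

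**Figure D3:**
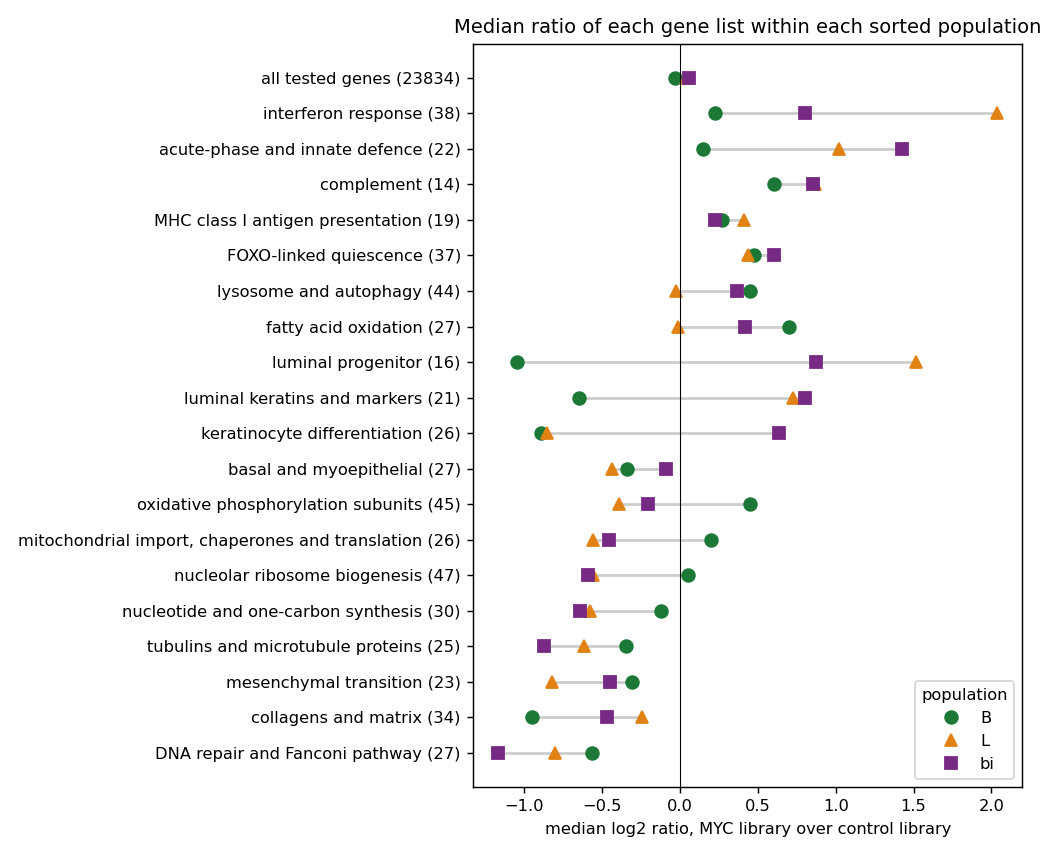
Median log2 ratio of the MYC over the control library for 19 gene lists and all tested genes (number of tested genes in brackets), with 1 symbol per population (green circle B, orange triangle L, purple square bi). The luminal progenitor list spreads from -1.05 in B to 1.51 in L, whereas the DNA repair list is below 0 in all 3.

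Ratios of luminal genes pointed in different ways in different sorts, a difference that was not tested. Kit, a receptor tyrosine kinase gene known as a marker of luminal progenitors (GRCm38 chr5:75574916-75656722), had no read in either B library, which allows up to 0.0555 CPM in the control and 0.0639 with MYC. It had 69 reads in the L control and 2059 in L MYC, or 0.897 and 26.1 CPM, and 13 and 118 reads in bi, or 0.139 and 2.33 CPM (4.49, SE 0.46, adjusted p = 0.0134). Foxi1, a forkhead factor chosen here after its values were seen, likewise had no read in B, 78 and 1143 reads in L and 9 and 178 in bi (4.36, SE 0.51, adjusted p = 0.0191). The fold changes of both rest on L and bi. The luminal progenitor list had Kit called higher and Spp1 lower among 16. Its median ratio was -1.05 in B, where 9 members were at least 2-fold lower, against 11.67% of all tested genes. In L and bi the median ratios were 1.51 and 0.87, and 10 and 7 members were at least 2-fold higher, against 7.65% and 8.86%. Over the 3 populations the list's median was 0.73, and it was 0.25 without L MYC and 1.34 without B MYC. The transcription factor gene Ehf was at 6.04, 349 and 197 CPM in the controls and 8.89, 629 and 378 with MYC (0.78, adjusted p = 0.0623). Csn1s1, a casein gene, was at 3.17 CPM in the L control and 34.3 in L MYC (2.75, adjusted p = 0.0948).

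Some genes had a ratio in 1 population that was at most 0.5 times as large in the same direction in the others, each from 1 library against 1 and without a test. In B, Mill1 went from 2263 reads in the control to 6 with MYC, with log2 ratios of -7.91 in B, 0.24 in L and 0.56 in bi. The metalloproteinase genes Mmp12 and Mmp13 went from 561 to 22.1 CPM and from 388 to 24.9 in B, and Mmp13 also had a ratio of -1.34 in L. The B Her2 library had 1 Mill1 read, and Dcn, for the proteoglycan decorin, had 69, 1094 and 1330 reads in the control, MYC and Her2 libraries of B. In both genes the B control stands apart from both oncogene libraries. Higher in B were Dcn (1.23 to 25 CPM), the interleukin 1 receptor gene Il1r1 (10.2 to 44.4), Cebpd (16.8 to 72.7), Medag (6.30 to 23.5) and Angptl4 (29.8 to 110).

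In L, the imprinted RNA H19 went from 90 reads in the control to 2303 with MYC, a log2 ratio of 4.61, against -1.19 in B and 2.02 in bi. Rtp4, Clu (for clusterin), Shank2 and Adamts15 followed, with ratios of 2.96, 2.59, 2.33 and 2.21, and Shank2 had -3.30 in B. Lower in L were the keratinization genes Krt79 (29.5 to 5.32 CPM) and Krtdap (69.8 to 13.7), the surface marker gene Cd34 (36.9 to 7.78), Gas7 (41.5 to 9.87) and Spink5 (102 to 30.6). In bi, the cornified envelope genes Sprr1a, Sprr2a2 and Sprr2a3 went from 4.93, 7.51 and 3.97 CPM to 40.3, 72.0 and 38.5, and the Sprr2a copies share reads. Prelp (5.51 to 71.0 CPM) and Enpp2, for autotaxin (3.21 to 38.5), were also higher there. Enpp2 was higher in the other sorts too, at 70.6 and 235 CPM in B (ratio 1.74) and 1.70 and 3.44 in L. Acta2, for smooth muscle actin, went from 105 to 13.0 CPM in bi, with ratios of -1.24 in B and 0.93 in L, and Thbs1 from 1453 to 282, with Osr1, Bard1 and Hist2h2aa2 next at -1.56, -1.45 and -1.38.

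The largest rises of all were in 5 predicted loci outside the naming rule, chosen after their values were seen. They were Gm48274 (log2 fold change 7.62, chr10:50424086-50424340), Gm48275 (7.01, chr10:50425044-50425330), Gm42031 (6.54, chr8:85125872-85132289), Gm42427 (5.69, chr5:44137980-44143271) and Gm43305 (4.67, chr14:54292443-54297456), all on GRCm38. Together they took 1.15, 2.11 and 1.32% of the reads of the B, L and bi MYC libraries, against 0.0166 to 0.0606% in the 6 other libraries. Gm42427 alone had 863212 reads in L MYC and 12375 in the L control. In the annotated transcripts, 60.9% of the 31-base words of Gm42031 and 66.2% of those of Gm48275 also occur in Gm43305, so reads may be split between these loci, while Gm48274 shares none with the others. The source of these reads was not tested, and the labels do not describe the vector. Leaving out the 5 loci left 172 calls.

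**Figure D4:**
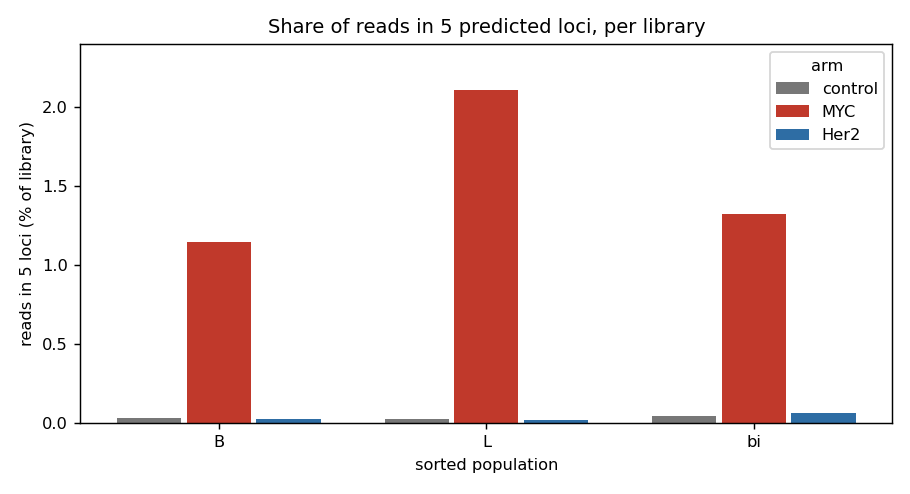
Share of each library's reads in the 5 predicted loci, in percent, by sorted population and arm (grey control, red MYC, blue Her2), 1 bar per library and no error bar. The 3 MYC bars stand at 1.15, 2.11 and 1.32%, and the 6 others at 0.0606% or less.

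The MYC libraries were also set against the Her2 libraries. This contrast reuses the MYC libraries on which the genes were called, and all 9 libraries set its spread, so its counts are no independent support. In it 1114 genes were called (4.67%). Of the 182 genes called against control 128 passed there too, and of the 40 rises and falls under the naming rule 37 did, the others being Myb, Bhlhe22 and Abcb1b. The comparisons of MYC and of Her2 with control share the control libraries, so their values are only set side by side. Hmga2 had -2.31 with MYC and 2.01 with Her2, Areg -2.97 and 2.5, Orm1 1.86 and -1.87, and Saa3 2.16 and -0.89. In the edgeR test of Her2 against control, Areg passed (adjusted p = 0.0399), while Hmga2 (adjusted p = 0.11), Orm1 (0.075) and Saa3 (0.297) did not. Coq8a had 2.61 with MYC and 0.14 with Her2, Tcp11l2 1.93 and -0.19, and Id4 -1.29 and -0.82. Of the called genes 1 was also called in Her2 against control, where 36 genes were called (0.151%).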

How the data were processed

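Stranded RNA-seq libraries were made with a ribosomal RNA depletion kit, per the labels' protocols, while the molecule label reads polyA. Per the file headers, the authors deposited an expected count (estimated reads) per gene and a TPM value, and per the submitters' processing notes they used Salmon 0.9.1 with mm10. The annotation release and the strand setting of the counting are not given in the sources used here. Lengths in the deposited TPM depend on isoforms, so TPM, as log2(TPM + 1) with limma 3.58.1, was an alternative only. That fit had its own filter on low TPM, which kept 15308 genes. Its list medians can therefore cover fewer members, and the added 1 shrinks changes at low levels.

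Counts were rounded, filtered with filterByExpr by arm (minimum count 10, total 15), which kept 23834 of 54281 genes, scaled with TMM and tested with the robust quasi-likelihood test of edgeR 4.0.16 (R 4.3.3) in an additive model of population and arm on all 9 libraries. The Her2 libraries serve for the spread, which also holds any interaction of population and arm. Labels give the sort of each library, and this pairs MYC with control. Calls needed an adjusted p (Benjamini-Hochberg) below 0.05. The SE, or standard error, is the log2 fold change over the square root of F. Ratios within a population are log2 CPM differences with a prior count of 2 and have no test. Intervals and the limit of 3 reads for a count of 0 cover counting error only. The procedure was tested on simulated data.

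The comparison and the 52 gene lists were chosen with earlier results of these data known, so lists are described by counts and medians. The naming rule takes Myc, Ly6a and Epcam, up to 15 rises and 25 falls by size (known symbol, at least 5 CPM in the higher group, same sign in the 3 populations), the called members of each list described and up to 3 others with the smallest p, and per population up to 5 ratios each way at 20 CPM or more with the ratio in the other populations at most 0.5 times as large in that direction. Alternatives were DESeq2 1.42.0, limma voom, other scalings and filters, no population block, and leaving out libraries. Symbols matched for 53544 identifiers with the version and 563 without, 174 had none.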

Additional observations from a re-analysis of the deposited data

Results flagged for a closer look

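In 9 results the ratio of MYC over control moved in opposite directions in different populations, counting lists of at least 10 tested genes with medians of at least 0.5 in size each way, and genes named for a population with log2 ratios of at least 1 each way. Smaller opposite ratios, such as 0.45 in B and -0.39 in L for oxidative phosphorylation, are not counted. Each ratio comes from 1 library against 1, and the difference between populations was not tested. The luminal progenitor median was 1.51 in L and -1.05 in B, a gap of 2.56 on the log2 scale. Luminal keratins and markers had 0.81 in bi and -0.65 in B, a gap of 1.45. Keratinocyte differentiation had 0.64 in bi, -0.86 in L and -0.89 in B, a gap of 1.53 between bi and B.

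For single genes the minimum of 20 CPM held only in the population for which the gene was named, so the opposite ratio can rest on low levels. The chemokine gene Ccl11 had a log2 ratio of 2.60 in bi, from 0.395 to 2.54 CPM, and -4.49 in B (gap 7.09). Its 4710 reads in the B control stand against 162 in B MYC and 15 in B Her2. H19 had 4.61 in L and -1.19 in B (gap 5.80), and Shank2 2.33 in L and -3.30 in B (gap 5.62). Tnn, for the matrix protein tenascin N, had 1.47 in bi and -3.68 in B (gap 5.14). Sprr1a had 3.02 in bi and -1.27 in L (gap 4.29), and the protease inhibitor gene Spink5 1.47 in B and -1.74 in L (gap 3.20). In B, H19 went from 1.08 to 0.457 CPM, Shank2 from 5.65 to 0.549 and Spink5 from 1.31 to 3.68. Tnn went from 3.14 to 8.71 CPM in bi, and Sprr1a from 1.85 to 0.749 in L.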

How the results depend on the processing

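Against 182 calls (47 higher, 135 lower), 400 (97 and 303) passed when scaled by library totals, 966 (364 and 602) in DESeq2, which left 5083 adjusted p-values empty, 845 (49 and 796) on TPM, 641 (194 and 447) with no filter, 548 (235 and 313) with 5 CPM in 3 libraries and 999 (370 and 629) without the Her2 libraries. Without the replicate block 4 passed (4 and 0). The fit without the robust setting, chosen after seeing the data, gave 87 (24 and 63). With 1 library left out the count ran from 6 to 642, with 3 to 214 higher and 2 to 428 lower. It was 1028 (268 and 760) without B, 99 (38 and 61) without L and 27 (13 and 14) without bi. The cause was not tested. At a log2 ratio of 0.5 in place of 1, 287 genes were higher and 450 lower in every population. Of 39 genes with a promoter window that were lower by the larger ratio in every population, 1 held the E-box. That is 2.56% (exact 95% interval 0.065 to 13.5%), against 7.41% of called falls. Of 36 genes higher by that ratio 7 held it (19.4%, 8.19 to 36.0%), against 15.2% of called rises. No called gene changed direction in any of the 24 alternatives that tested it. The genes were called on these same libraries, so nothing is read from this. Of 468 list medians recomputed 45 moved by more than the spread between populations. On TPM, where the median of all genes shifted by -0.18, 7 of the 52 list medians changed sign, among them glycolysis (-0.04), the circadian clock (-0.09), p53 targets (-0.13) and TGF-beta and BMP (-0.20). With 1 library per population and arm, depth limits genes with few reads, and a gene without reads in B gives no ratio there.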

Other observations

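Krt15, a keratin gene of basal and progenitor cells, had a log2 fold change of 4.57 and was not called (SE 1.29, adjusted p = 0.216), although it was higher with MYC in each population. It had 168, 134 and 176 reads in the B, L and bi controls and 2286, 843 and 5738 with MYC. Igfbp5, for a secreted IGF-binding protein, was at 0.195, 9.06 and 1.93 CPM in the controls and 0.0229, 104 and 18.9 with MYC (2.78, adjusted p = 0.212). Both were chosen after their values were seen. Cholesterol synthesis genes had a median of -0.28, which was -0.04 without the B control, and none of 24 was called. In all 3 populations 15 were lower and 1 higher, against 18.1% and 19.9% of all tested genes. Il1a, for the ligand that Il1rn opposes, was at 63.1, 271 and 154 CPM in the controls and 28.0, 203 and 62.4 with MYC (-0.97, adjusted p = 0.0619).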
